A study of Homo sapiens with 12 samples.

Results

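The expressed ZNF genes are the zinc finger genes of the ZNF symbol series that HEK293 cells transcribe at a clear level. They were chosen by their level in the control arrays, as every gene whose symbol is ZNF followed by a number and at most 1 letter, at the transcript cluster with the highest mean over all 12 arrays, where the mean of the 6 control arrays was 7 or more on the log2 scale. Of 471 such genes measured, 130 met this rule. All 130 were protein-coding genes except ZNF271P, a transcribed pseudogene. The compared cells were HEK293, a human embryonic kidney line transformed with adenovirus DNA. In 6 arrays (mimic-1825) the cells had received Syn-hsa-miR-1825, a synthetic copy of the microRNA miR-1825. In the other 6 (control) they had received AllStars Negative Control siRNA. Both RNAs were given at 5 nM with the HiPerfect reagent, RNA was taken after 24 h, and no untransfected arrays were used here. Nothing in the labels states that a group's arrays stem from different cultures. The p-values therefore reflect just the scatter among these arrays, and that scatter may be technical. The series title links miR-1825 to amyotrophic lateral sclerosis and names the search for its target mRNAs as the purpose.

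ZNF genes make up a large share of the human transcription factors. Most encode proteins with arrays of C2H2 fingers, each folded around a zinc ion and reading a few bases of DNA. Many also carry a KRAB domain, which binds TRIM28. TRIM28 in turn brings in the histone methyltransferase SETDB1 and HP1 proteins, and this silences retroelements and other targets. KRAB zinc finger genes lie in clusters, above all on chromosome 19, and arose by repeated duplication, so relatives share sequence and array probes may bind more than 1 of them. A smaller number of ZNF proteins act at gene promoters, on RNA, at the ribosome or at the spindle.

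The mature miR-1825 is shown because its mimic was the agent transfected. It lies on the plus strand at chr20:32237830-32237847 in RefSeq's table on GRCh38.p14, and bases 2 to 8, the seed through which a microRNA pairs with its targets, are in capitals. Of the other mature microRNAs in the RefSeq table, 0 shared this seed.
hsa-miR-1825: uCCAGUGCccuccucucc

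Promoters of 6 genes are shown as examples of relatives with similar start regions. The genes were picked with their values known, and differences between relatives were not tested. Each runs from 250 bases before to 50 bases after the RefSeq start, 5′ to 3′ on the gene's strand (GRCh38.p14). Capitals mark 3 motifs on either strand: the NF-Y motif CCAAT, the ETS factor core CCGGAAG and the Sp1 core CCCGCCC. The set holds ZNF714 (chr19:21081953-21082252, plus strand), its closest match ZNF431 (chr19:21141790-21142089, plus), ZNF92 (chr7:65373605-65373904, plus), ZNF138 (chr7:64794178-64794477, plus), ZNF845 (chr19:53333499-53333798, plus) and ZNF611 (chr19:52734995-52735294, minus).
ZNF714: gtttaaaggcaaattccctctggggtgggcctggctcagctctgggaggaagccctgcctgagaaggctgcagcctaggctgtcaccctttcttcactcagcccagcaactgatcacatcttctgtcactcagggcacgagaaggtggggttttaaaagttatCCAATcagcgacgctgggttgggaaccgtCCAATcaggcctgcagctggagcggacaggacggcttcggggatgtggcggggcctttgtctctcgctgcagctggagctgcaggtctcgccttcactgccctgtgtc
ZNF431: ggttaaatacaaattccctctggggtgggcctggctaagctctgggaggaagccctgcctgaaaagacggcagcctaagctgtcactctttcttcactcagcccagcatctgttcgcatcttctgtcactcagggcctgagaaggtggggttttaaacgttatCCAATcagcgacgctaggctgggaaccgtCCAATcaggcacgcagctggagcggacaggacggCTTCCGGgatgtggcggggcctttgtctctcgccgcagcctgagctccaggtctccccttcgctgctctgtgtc
ZNF92: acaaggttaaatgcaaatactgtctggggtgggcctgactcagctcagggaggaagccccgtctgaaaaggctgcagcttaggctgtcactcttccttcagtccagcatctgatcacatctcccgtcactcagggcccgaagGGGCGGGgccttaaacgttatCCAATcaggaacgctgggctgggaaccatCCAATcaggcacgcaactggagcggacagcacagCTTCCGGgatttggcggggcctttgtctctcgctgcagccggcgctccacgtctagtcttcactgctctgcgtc
ZNF138: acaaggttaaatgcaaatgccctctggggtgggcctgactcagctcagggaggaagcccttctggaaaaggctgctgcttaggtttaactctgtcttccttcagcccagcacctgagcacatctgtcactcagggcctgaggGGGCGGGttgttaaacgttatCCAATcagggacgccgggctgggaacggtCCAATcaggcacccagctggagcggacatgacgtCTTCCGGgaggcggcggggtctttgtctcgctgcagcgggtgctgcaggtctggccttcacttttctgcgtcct
ZNF845: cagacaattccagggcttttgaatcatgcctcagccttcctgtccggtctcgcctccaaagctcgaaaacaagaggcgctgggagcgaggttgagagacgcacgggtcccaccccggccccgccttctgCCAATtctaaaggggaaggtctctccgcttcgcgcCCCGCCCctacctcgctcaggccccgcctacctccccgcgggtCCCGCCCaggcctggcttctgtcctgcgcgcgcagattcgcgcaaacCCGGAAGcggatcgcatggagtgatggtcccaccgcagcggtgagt
ZNF611: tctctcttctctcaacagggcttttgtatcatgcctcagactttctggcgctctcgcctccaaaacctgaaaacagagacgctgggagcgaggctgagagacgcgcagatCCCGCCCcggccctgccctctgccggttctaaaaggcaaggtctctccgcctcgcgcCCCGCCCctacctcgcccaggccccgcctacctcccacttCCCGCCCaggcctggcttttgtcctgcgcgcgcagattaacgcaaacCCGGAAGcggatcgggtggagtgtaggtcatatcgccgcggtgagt

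The arrays gave 1 log2 value for each of 53617 transcript clusters, between 1.62 and 14.4, with array medians from 4.44 to 4.51. Of the listed markers of HEK293 and the embryonic kidney or neural lineage, 7 of 11 were measured and 4 had a control mean of 7 or more. These were the keratin gene KRT18 (9.63 in mimic arrays and 9.74 in control arrays), the intermediate filament gene VIM (8.01 and 8.08), EYA1 (7.72 and 7.74) and SALL2 (7.58 and 7.62). The kidney regulator PAX2 was dimmer, at 5.61 in mimic arrays and 5.59 in control arrays, and the neurofilament genes were not analysed here. No measured fibroblast or leukocyte marker reached 7. Of 6 measured markers of epithelial cancer lines, EPCAM alone did, at 7.94 in mimic arrays and 7.95 in control arrays. The summed log2 values of each list overlapped between the groups: 50.6 to 51.7 in mimic against 50.9 to 52.2 in control arrays for the HEK293 list, 13.4 to 13.9 against 13.4 to 13.8 for fibroblasts, 12.8 to 13.5 against 12.6 to 13.5 for leukocytes and 29.5 to 30.6 against 29.9 to 30.5 for epithelial lines. The part of any other cell type in the ZNF values was not tested.

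None of the 130 expressed ZNF genes passed the limma threshold of an adjusted p of 0.05 over all clusters, against 0.0112% of all 53617 clusters. The family differed from control by small amounts, more often upward: 90 of the 130 genes (69.2%) had a higher mean in the mimic arrays, against 60.8% of the 5003 named genes of the same control level. The median difference, mimic minus control on the log2 scale, was 0.05 for the ZNF genes and 0.02 for the other 4873 named genes of control mean 7 or more. The middle range between the quartiles ran from -0.02 to 0.10. A fold of 1.2 was reached by 2 of the 130 and a fold of 1.5 by 0. An array value cannot separate fewer expressing cells from less RNA per cell.

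At an unadjusted limma p under 0.05, 21 of the 130 genes (16.2%) were higher and 1 (0.769%) was lower in the mimic arrays. Among all named genes of control mean 7 or more the shares were 11.5% higher and 2.98% lower, and among all clusters 5.36% and 5.4%. Named genes of this level were thus also more often higher than lower, and the gap between them and the ZNF genes was not tested. The scaling moved both. After quantile normalization of the arrays, 14 ZNF genes were higher and 5 lower, and 79 had a higher mean, with a median difference of 0.02. The named genes of control mean 7 or more then split into 362 higher and 356 lower, in place of 577 and 149, and 47.7% had a higher mean, while the median of the other named genes was -0.01. In the brightest 25% of clusters, tested alone (13405 clusters with a mean of at least 6.29, all 130 genes among them), 1.42% of the clusters were higher and 0.38% lower past the limma threshold, and 0 of the 130 genes passed. Those 191 higher and 51 lower clusters became 126 and 113 when the arrays were quantile-normalized first, and then ZNF764, described further on, passed as lower. All 6 mimic arrays lay above all 6 controls in 1 of the 130 genes, against 3.34% of the named genes of that level. In 0 genes did they all lie below, against 0.54%. Every mimic array was above the control mean in 34 genes and below it in 9. The same counts were not made for the named genes of that level. The 60.8% of these with a higher mean is a different measure. Whether the 34 and 9 genes mark a trait of the ZNF genes was therefore not tested.

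**Figure D1:**
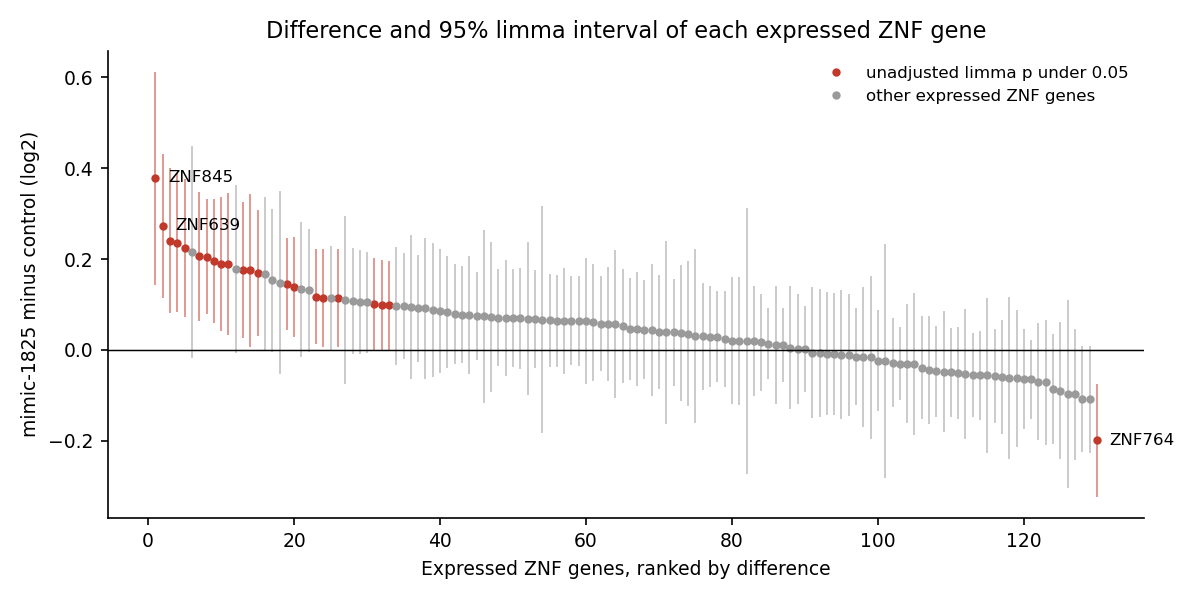
The difference in mean log2 value, mimic minus control, is plotted for each of the 130 expressed ZNF genes in order of size, with 95% intervals from limma. Differences run from -0.20 for ZNF764 to 0.38 for ZNF845, and 90 of the 130 points lie above 0.

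The higher values were not shared evenly by the arrays. Each array was summarised as the median, over the 130 genes, of its value minus the gene's control mean. This was 0.07, 0.07, 0.05, 0.01, 0.04 and 0.03 in mimic replicates 1 to 6, and 0.02, -0.01, 0.02, -0.01, 0.03 and -0.05 in control replicates 1 to 6. The groups therefore overlapped, with mimic replicate 4 under control replicates 1, 3 and 5. Control replicate 6 was the lowest, with 33 of the 130 genes above their control mean, where the mimic arrays had 68 to 95. Without it the median difference of the ZNF genes was 0.03, 85 had a higher mean, and 14 were higher and 3 lower at an unadjusted limma p under 0.05. The other named genes of that level moved in the same arrays, with medians from -0.0004 to 0.05 in mimic arrays and from -0.04 to 0.02 in control arrays. The 75th percentile of all clusters was 6.307 to 6.321 in mimic arrays and 6.281 to 6.311 in control arrays, and its part in the ZNF values was not tested.

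**Figure D2:**
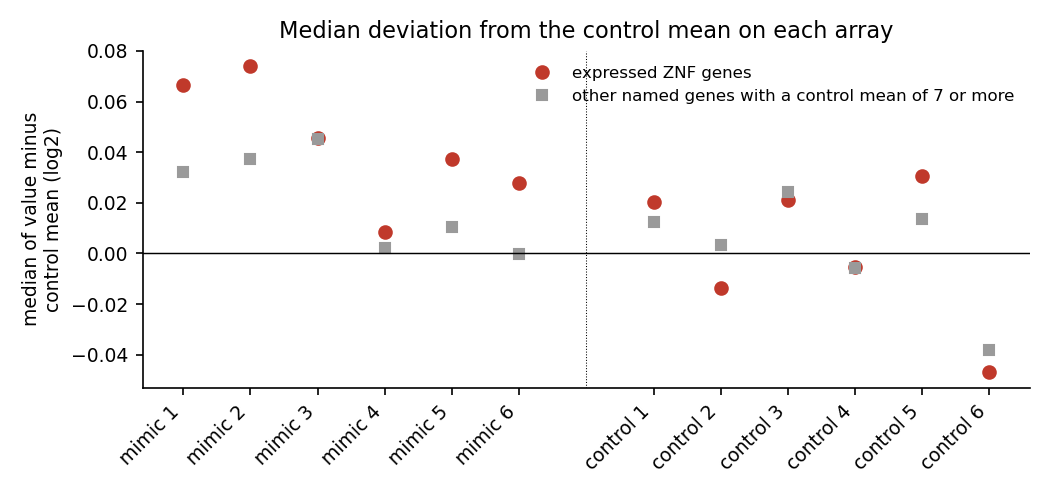
For each array the median deviation from the control mean is shown for the 130 expressed ZNF genes and for the other named genes of control mean 7 or more, in log2 units, mimic arrays left and control arrays right. Mimic replicates 1 and 2 are highest at 0.07, and control replicate 6 is lowest at -0.05 for the ZNF genes.

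ZNF845 had the largest difference of the expressed ZNF genes. This KRAB zinc finger gene of chromosome 19 had log2 values from 7.24 to 7.67 with a median of 7.54 in mimic arrays, against 6.80 to 7.42 with a median of 7.18 in control arrays. The groups overlapped, and the highest controls lay within the mimic range. Its means were 7.50 ± 0.17 in mimic and 7.12 ± 0.23 in control arrays (SD, n = 6 each). The difference was 0.38 (SE 0.11, 95% interval 0.14 to 0.61), or 1.30-fold, with a limma adjusted p of 0.265.

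ZNF639, also known as ZASC1 and located in a region often amplified in squamous tumours, was the 1 gene whose groups did not overlap. Its values ran from 7.73 to 8.22 (median 7.94) in mimic arrays and from 7.64 to 7.71 (median 7.68) in control arrays. The controls were tightly grouped, and the lowest mimic array lay just above them. The difference was 0.27 (SE 0.07, interval 0.11 to 0.43), 1.21-fold, with a limma adjusted p of 0.245 over all clusters and 0.0613 in the brightest 25%.

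Several KRAB zinc finger genes followed, each with overlapping groups. ZNF92 of chromosome 7 had 7.02 to 7.41 (median 7.26) in mimic arrays and 6.85 to 7.17 (median 7.01) in control arrays, a difference of 0.24 (interval 0.08 to 0.40, limma adjusted p = 0.292). ZNF33B of chromosome 10 had 7.29 to 7.66 (median 7.51) in mimic and 7.06 to 7.44 (median 7.27) in control arrays, also a difference of 0.24 (limma adjusted p = 0.282). In both genes 5 of the 6 mimic arrays lay above the highest control. ZNF268 had 7.22 to 7.36 (median 7.29) in mimic arrays and 6.82 to 7.28 (median 7.06) in control arrays, with a difference of 0.22 (limma adjusted p = 0.297). ZNF567 had 7.93 to 8.16 (median 8.02) in mimic arrays and 7.70 to 8.01 (median 7.82) in control arrays, with a difference of 0.21 (limma adjusted p = 0.301). For ZNF268 the mimic arrays were closely spaced and the controls wide. ZNF267 and ZNF529, further KRAB genes, differed by 0.19 and 0.14 (limma adjusted p = 0.354 and 0.359).

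Some genes of higher level were also among the 12 higher genes with the smallest p. ZNF770 had 9.31 to 9.60 (median 9.45) in mimic arrays and 9.10 to 9.33 (median 9.26) in control arrays, a difference of 0.21 with a limma adjusted p of 0.265 over all clusters and 0.0624 in the brightest 25%. ZNF121 had 10.01 to 10.21 (median 10.15) in mimic arrays and 9.94 to 10.08 (median 9.96) in control arrays, a difference of 0.15 (limma adjusted p = 0.308). In ZNF121 mimic replicate 4 fell inside the control range and the other mimic arrays lay above it. ZNF322 differed by 0.20 at 8.63 ± 0.06 in mimic and 8.43 ± 0.14 in control arrays (limma adjusted p = 0.309), and a second, dimmer cluster of the gene by 0.16. ZNF507 differed by 0.17 (limma adjusted p = 0.377), with control replicate 2 far below the other controls.

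**Figure D3:**
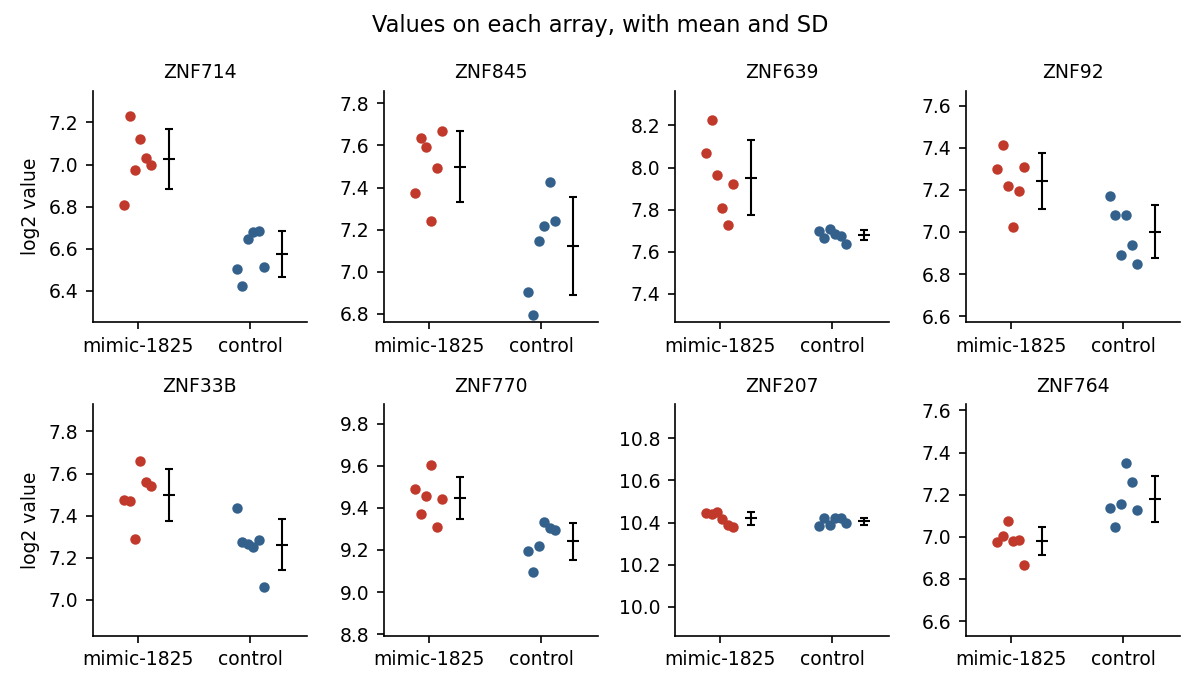
Log2 values of single arrays are plotted for ZNF714 and for 7 expressed ZNF genes, ZNF764 among them, mimic arrays left of control arrays, with the mean and SD of each group. ZNF639 is the gene of the 130 with no overlap, its lowest mimic array at 7.73 and its highest control at 7.71.

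ZNF764 was the lower gene with the smallest p. It is a KRAB zinc finger gene of chromosome 16 whose product is known as a partner of the glucocorticoid receptor. Its values ran from 6.86 to 7.07 (median 6.98) in mimic arrays and from 7.05 to 7.35 (median 7.15) in control arrays. The highest mimic array reached just past the lowest control, and all 6 mimic arrays were under the control mean. The means were 6.98 ± 0.07 in mimic and 7.18 ± 0.11 in control arrays, a difference of -0.20 (SE 0.06, interval -0.32 to -0.08), or 0.871-fold. The limma adjusted p was 0.265 over all clusters and 0.0617 in the brightest 25%. There, after quantile normalization, the difference was -0.23 with a limma adjusted p of 0.0444, a combination chosen after the data were seen.

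The other 39 lower genes had limma adjusted p values of 0.499 or more. ZNF511 had 8.38 to 8.60 (median 8.48) in mimic arrays and 8.48 to 8.66 (median 8.61) in control arrays, a difference of -0.11 (limma adjusted p = 0.499). ZNF623 also differed by -0.11 (limma adjusted p = 0.500). ZNF138 differed by -0.10 with an interval from -0.24 to 0.05. The groups overlapped in each of these. ZNF787 and ZNF618 had -0.09 and ZNF543 had -0.07. ZNF747, which lies beside ZNF764 on chromosome 16, had -0.06, as did ZNF398, ZNF703, ZNF8 and ZNF304. ZNF703 is known as a breast cancer oncogene that represses transcription.

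ZNF714, a KRAB zinc finger gene of chromosome 19, was singled out for its difference on these arrays, so its values are a description. Its control mean lay under 7, so it is not among the 130, and it ranked 165 of 471 ZNF genes by control mean. It had 7.03 ± 0.14 in mimic and 6.58 ± 0.11 in control arrays (SD, n = 6 each). Its values ran from 6.81 to 7.23 (median 7.02) in mimic arrays and from 6.43 to 6.68 (median 6.58) in control arrays, with no overlap. The difference was 0.45 (interval 0.29 to 0.61), or 1.37-fold.

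The relatives and chromosome 19 neighbours of ZNF714 did not share one direction. Of 35 listed, 29 were measured, and 14 of the 29 had a higher mean in mimic arrays, with a median difference of -0.02. Leaving out ZNF714 itself gave 13 of 28, and the median control mean of those 28 was 4.06. The array medians were 4.44 to 4.51, so many of these signs come from dim genes. Without ZNF714, 5 of 28 (17.9%) were higher and 1 (3.57%) was lower at an unadjusted limma p under 0.05, where 12% and 2.05% of the ZNF genes under 7 and 4.23% and 4.8% of all named genes under 7 were. Only 3 of the list were expressed by the rule: ZNF100 (0.15, 8.28 ± 0.15 in mimic and 8.13 ± 0.10 in control arrays), ZNF254 (0.09) and ZNF431 (-0.06). Below the level of 7, ZNF430 had 6.11 ± 0.29 in mimic and 5.42 ± 0.41 in control arrays, a difference of 0.70 (interval 0.30 to 1.09, limma adjusted p = 0.241). ZNF429, ZNF675, ZNF708 and ZNF493 differed by 0.50, 0.43, 0.40 and 0.33, and ZNF729, with a control mean of only 3.21, by -0.19. These dim genes were named after their values were seen. Whether their probes bind several relatives was not tested.

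The promoters printed above show how close some starts are. Promoters were compared by edit distance over 300 bases, and 70% identity was chosen as the threshold after the values were seen. RefSeq gave promoters for 395 of the 471 ZNF genes, and 61 of these genes fell into 15 groups, with 10 expressed ZNF genes among them. The largest group held 26 genes of chromosomes 7 and 19, of which 13 had a higher and 13 a lower mean in mimic arrays. At an unadjusted limma p under 0.05, 4 of the 26 were higher and 0 lower. Among all 471 ZNF genes 13.2% were higher and 1.70% lower by that rule. The 4 include ZNF714, which was singled out for its difference. ZNF714 and ZNF431 were 91.0% identical, with differences of 0.45 and -0.06. ZNF92 and ZNF138 were 83.0% identical, with 0.24 and -0.10. The lower gene of each of these pairs had an interval that included 0. Other alike pairs had the same sign, upward or downward. ZNF92 and ZNF430, 84.7% identical, had 0.24 and 0.70, and ZNF841 and ZNF616, 74.0% identical, had 0.13 and 0.40. ZNF587B and ZNF814, 89.7% identical, had -0.17 and -0.06. ZNF439 and ZNF69 had -0.06 and -0.02, and ZNF727 and ZNF736 had -0.17 and -0.02. ZNF429, ZNF675 and ZNF708 formed a group in which all 3 had a higher mean. These pairs were picked with their values known. ZNF845 and ZNF611, 83.3% identical, had differences of 0.38 and 0.18, in a group of 6 genes of which 4 had a higher and 2 a lower mean. ZNF611 had 7.34 ± 0.14 in mimic and 7.17 ± 0.17 in control arrays (limma adjusted p = 0.480). Of the 24 genes with a promoter like that of ZNF714, at 72% to 91% identity, 12 had a higher and 12 a lower mean, and 5 of the 24 were expressed.

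**Figure D4:**
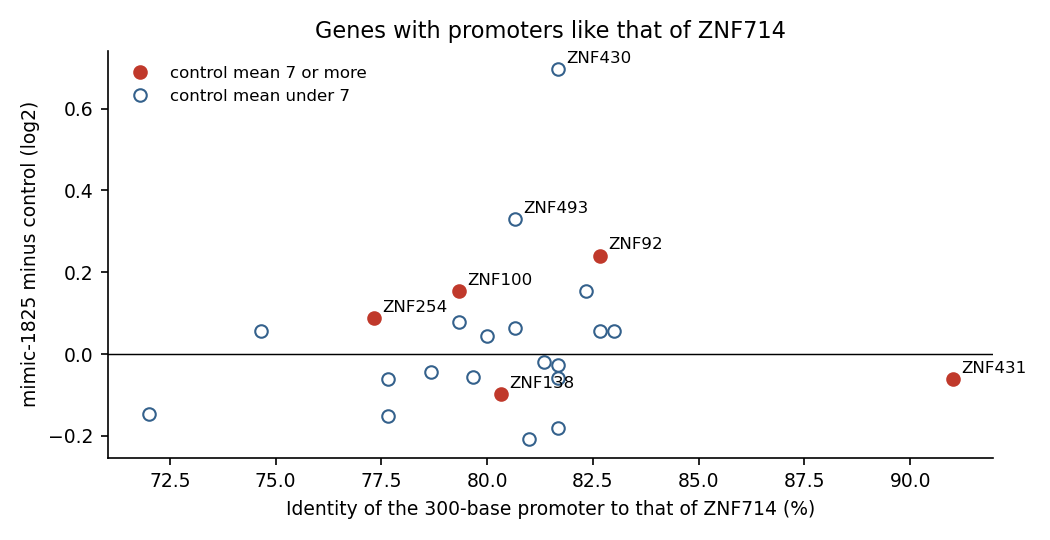
The difference between mimic and control in log2 units is plotted against promoter identity to ZNF714 in percent for the 24 genes at or above 70% identity, with the 5 expressed genes marked. Differences of both signs occur along the axis, and ZNF431, at 91.0% identity, lies at -0.06.

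Short motifs were counted in the promoters of 117 expressed ZNF genes (143 promoters), on both strands. CCGGAAG, the core of ETS factor sites, stood in 32.9% of them, against 10.3% of all 35116 promoters in the RefSeq table and 19.7% of those of named genes of control mean 7 or more. CCAAT, bound by NF-Y, stood in 39.2%, against 34.6% of all and 36.5% of the named genes at that level. CCCGCCC, the core of Sp1 sites, was in 45.5%, against 33.1% and 53.9%, and TATAAA in 4.90%, against 11.5% and 5.32%. Over the 509 promoters of all ZNF genes measured, CCGGAAG stood in 33.4%, CCAAT in 44.0%, CCCGCCC in 40.1% and TATAAA in 4.13%. The CCGGAAG share was thus no trait of the expressed ZNF genes alone. The median difference was 0.06 in the 46 genes with CCGGAAG and 0.05 in the 71 without it. For CCAAT it was 0.05 in 53 genes with it and 0.06 in 64 without it. A match describes the letters of the window and not a bound site.

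Chromosome 19 held 48 of the 130 genes (36.9%), against 52.2% of the 341 ZNF genes of lower control level. In the mimic arrays 32 of the 48 had a higher mean, with a median difference of 0.04. Of the 82 on other chromosomes 58 had a higher mean (70.7%), with a median of 0.05. The other named genes of control mean 7 or more went the other way on chromosome 19, where 80 of 284 (28.2%) had a higher mean and the median was -0.03. At an unadjusted limma p under 0.05, the chromosome 19 ZNF genes split into 8 higher and 0 lower, and the other chromosome 19 genes into 6 higher and 16 lower. After quantile normalization the splits were 7 and 0 for the ZNF genes and 3 and 38 for the others, and the median of the ZNF genes was 0.02. The gap between the sets on this chromosome was not tested. On chromosome 7, 7 of 9 expressed ZNF genes had a higher mean (median 0.11), and on chromosome 16, 4 of 9 (median -0.03). Chromosomes 9, 1 and 6 had 6 of 7, 5 of 6 and 5 of 5 (medians 0.06, 0.04 and 0.10). Other named genes were not counted on these chromosomes, so the small counts mark no trait of any of them.

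**Figure D5:**
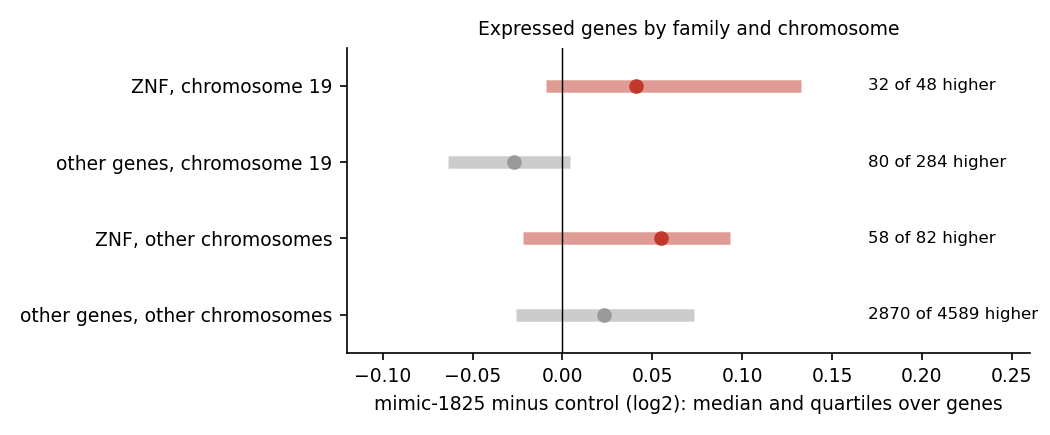
The difference between mimic and control means, in log2 units, is given as the median and quartiles over genes for expressed ZNF genes and for other named genes of control mean 7 or more, on chromosome 19 and elsewhere. On chromosome 19 the ZNF median is 0.04 and that of the other genes is -0.03.

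None of the expressed ZNF genes whose proteins work at promoters reached an unadjusted limma p under 0.05. Of 11 listed, 7 were expressed, and all 7 had a higher mean as deposited, where 60.8% of the named genes of that level did. ZNF148, which binds GC-rich promoters, had 7.93 to 8.04 (median 7.97) in mimic and 7.69 to 7.98 (median 7.88) in control arrays, a difference of 0.11 (limma adjusted p = 0.504). ZNF24 had 0.10, ZNF335, a partner of histone H3 methylation complexes, 0.07, and ZNF384 0.06. ZNF143, an activator of small nuclear RNA and mRNA genes, and ZNF410 had 0.04. ZNF281 had 0.02 and was -0.01 after quantile normalization. CHD4, a nucleosome remodeller whose promoter ZNF410 is known to activate, had -0.06.

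ZNF proteins of chromatin complexes, of RNA and of the ribosome had differences on both sides of 0. Of 13 chromatin partners 7 were expressed and 4 had a higher mean: ZNF711, a partner of the demethylase PHF8 (0.09), ZNF644, a partner of the G9a and GLP methyltransferases (0.08), ZNF217, which joins CtBP and CoREST (0.07), and ZNF532 (0.06). ZNF687, ZNF827 and ZNF592 had -0.01, -0.02 and -0.05. Of 10 RNA and ribosome factors 9 were expressed and 5 had a higher mean. ZNF638, linked to splicing and to silencing of retroviral DNA, had 8.33 to 8.56 (median 8.44) in mimic arrays and 8.26 to 8.42 (median 8.32) in control arrays, a difference of 0.11 (limma adjusted p = 0.445), and was the 1 gene of these lists at an unadjusted p under 0.05. ZNF473, which acts in histone mRNA 3′ end formation, had 0.08, ZNF326 0.07, ZNF830 0.04 and ZNF593 0.01. ZNF385A had -0.01, ZNF622, a factor of the large ribosomal subunit, -0.02, ZNF598, the ubiquitin ligase of stalled ribosomes, -0.06 and ZNF346, a binder of double-stranded RNA, -0.07. ZNF687 and ZNF385A were just above 0 with median centring, and ZNF593 just below 0 after quantile normalization. None of 7 listed retroelement binders was expressed by the rule. ZNF91 had 3.97 in mimic and 3.91 in control arrays, and ZNF93 had 3.12 and 3.33.

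The 6 genes of highest control level had differences between 0.01 and 0.15, the largest in ZNF121, whose values are given above. ZNF207, which binds spindle microtubules and loads BUB3 at kinetochores, had 10.42 ± 0.03 in mimic and 10.41 ± 0.02 in control arrays, a difference of 0.01 that was -0.01 after quantile normalization. ZNF146 had 10.30 ± 0.07 in mimic and 10.20 ± 0.05 in control arrays (limma adjusted p = 0.461). ZNF326, a subunit of the DBIRD complex that couples transcription to splicing, had 10.02 ± 0.06 in mimic and 9.95 ± 0.08 in control arrays, ZNF280C had 9.97 ± 0.05 and 9.90 ± 0.08, and ZNF644 had 9.59 ± 0.06 and 9.52 ± 0.06. The share with a higher mean was above that of other named genes at each level, a gap that was not tested: 31 of 43 genes between 7 and 7.5 (72.1%, against 56.4% of other named genes), 21 of 33 between 7.5 and 8 (63.6%, against 57.4%), 23 of 35 between 8 and 9 (65.7%, against 62.0%) and 15 of 19 above that (78.9%, against 63.5%). The spread within groups ranged from an SD of 0.03 in ZNF207 to 0.26 in ZNF420, with a median of 0.09, against 0.07 for the other named genes. ZNF142 and ZNF317 were also tight (0.03 each), and ZNF773 and ZNF827 wide (0.22 each). At the level that chose the genes, ZNF92, ZNF217, ZNF623 and ZNF180 were just inside, with control means of 7.001, 7.003, 7.012 and 7.016. ZNF653, ZNF551, ZNF621 and ZNF774 were just outside, at 6.997, 6.995, 6.983 and 6.969. Among the 341 ZNF genes under 7, 198 (58.1%) had a higher mean, against 44.7% of all named genes under 7. At an unadjusted limma p under 0.05, 41 of them (12%) were higher and 7 (2.05%) lower, against 4.23% and 4.8% of the named genes under 7. The gap was not tested.

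The partners through which KRAB proteins act showed no common shift. Of 18 listed symbols of heterochromatin genes, of which TASOR and FAM208A name the same gene, 14 were measured. Of these, 8 had a higher mean, and the median difference was 0.003. CBX3, an HP1 protein, had 9.46 to 9.51 in mimic and 9.26 to 9.43 in control arrays, with no overlap. Its difference was 0.14 (limma adjusted p = 0.267), and in the brightest 25% of clusters it passed (limma adjusted p = 0.0440). MPHOSPH8 and PPHLN1, subunits of the HUSH silencing complex, had 0.15 and 0.11. TRIM28 had 11.23 ± 0.04 in mimic and 11.28 ± 0.04 in control arrays (limma adjusted p = 0.679), and CBX5, another HP1 gene, had -0.07.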

How the data were processed

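RNA of 12 HEK293 samples was hybridised to Affymetrix Human Gene 2.0 ST arrays, 6 after the miR-1825 mimic and 6 after the control siRNA, as the titles label them. The authors deposited 1 value per array and transcript cluster, which the submitters' processing notes credit to Affymetrix Expression Console. The sources used here do not give its version, background correction or normalization. From their range, the values the authors deposited are on a log2 scale, and no further scaling was applied.

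Clusters were named through the supplied platform annotation: 16098 have 1 symbol, 0 have several and 37519 are unnamed here. The ZNF genes had 488 clusters. limma 3.58.1 in R 4.3.3 (lmFit, eBayes, two-sided) was fitted on all 53617 clusters, mimic minus control, with Benjamini-Hochberg adjustment over all of them. It was tested on simulated data. Intervals are 95%. The number of arrays limits the precision. Members and gene lists were chosen with earlier results of these data known. The rule for genes took ZNF714, the 12 higher and 12 lower of smallest p, the 6 of highest level, the 3 of smallest and of largest SD, the 4 on each side of the level of 7 and the role lists. Genes outside it were chosen after their values were seen. Alternatives were a replicate block, quantile and median scaling, a trend and robust prior, level filters, other levels for membership, 1 cluster per gene, the mean over a gene's clusters and leaving out each array. Promoters and the microRNA are from RefSeq (GRCh38.p14). Protein sequences were not used here.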

Additional observations from a re-analysis of the deposited data

Results flagged for a closer look

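The extreme arrays of 80 genes and of the median over the 130 expressed ZNF genes were examined within each treatment, in 162 groups of 6 arrays. An array far from the other 5 was found 8 times, and by chance about 1 group in 20 shows one. Among the mimic arrays, ZNF121 was lowest in replicate 4 at 10.01, against 10.14 to 10.21 in the others. ZNF143 was highest in replicate 3 at 8.13, against 7.82 to 7.93. ZNF621, just under the level of 7, was highest in replicate 2 at 7.20, against 6.85 to 6.97, and ZNF787 was lowest in replicate 6 at 7.11, against 7.33 to 7.41. Among the control arrays, ZNF507 and ZNF326 were lowest in replicate 2, at 8.08 with the others at 8.36 to 8.44, and at 9.79 with the others at 9.97 to 10.00. ZNF254 was lowest in control replicate 6 at 7.62, against 7.88 to 8.02, and ZNF592 was highest in control replicate 1 at 9.47, against 9.30 to 9.35.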

How the results depend on the processing

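None of the 130 expressed ZNF genes passed the limma threshold under the other settings given with the methods. With the brightest 25% of clusters after quantile normalization, chosen after the data were seen, 1 did (ZNF764). The median difference stayed between 0.02 and 0.06. The count of 6 clusters past the threshold was 0 with a replicate block or with 1 cluster per named gene, 13 at or above the median level, 39 with a trend and robust prior, 242 in the brightest 25%, 239 there after quantile normalization, and 0 to 6 without single arrays (0 without mimic replicate 1, 2, 4, 5 or 6 or control replicate 1, 2 or 3, and 2 without mimic replicate 3 or control replicate 4). The 21 higher genes were 35 of 236 at a control mean of 6 or more, 9 of 54 at 8 or more, and 14 to 27 without single arrays. The 1 lower gene became 2 with the block, the trend and robust prior or a control mean of 6, 5 after quantile normalization, 3 in the brightest 25%, 0 at a control mean of 8 or with the mimic mean as the criterion, and 1 to 3 without single arrays (2 without mimic replicate 1 or 5 or control replicate 4, and 3 without control replicate 6). The causes were not tested. Same-numbered arrays deviated with correlations of -0.11 to 0.08. Differently numbered arrays were not compared, and the labels do not say whether the numbers pair the samples, so pairing stays undecided. The block gave 14 higher genes.

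Of 1428 values of 80 genes, 32 changed sign, in 12 genes of differences up to 0.04 in size. After quantile normalization ZNF420 had -0.00074, ZNF281 -0.00768, ZNF207 -0.00727, ZNF653 -0.0116, ZNF593 -0.0143 and ZNF317 -0.00634. With median centring ZNF385A had 0.00459, ZNF621 0.000935 and ZNF687 0.000573. Without single arrays ZNF143 ran from -0.00305 to 0.0604, ZNF420 from -0.0587 to 0.0861, ZNF281 from -0.00257 to 0.0476, ZNF653 from -0.00227 to 0.0475, ZNF593 from -0.0182 to 0.0566, ZNF385A from -0.0506 to 0.0255, ZNF621 from -0.0609 to 0.0300, ZNF687 from -0.0331 to 0.0209, ZNF827 from -0.119 to 0.0507 and ZNF180 from -0.0793 to 0.0075. ZNF714, singled out for its difference on these same arrays, had 0.41 to 0.50 without single arrays. The search for zinc finger, KRAB and SCAN patterns in proteins was planned and not run.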

Other observations

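Neighbouring genes did not always share a direction. Of 37 pairs of expressed ZNF genes that lie next to each other among the ZNF genes measured, in RefSeq order, 17 had both means higher in mimic arrays, 8 both lower and 12 one of each. Of all 130 genes 69.2% had a higher mean. Pairs of other neighbouring genes were not counted, so whether neighbours went together was not tested. ZNF567 and ZNF850 on chromosome 19 were 0.21 and 0.19 higher. ZNF805, ZNF460, ZNF543 and ZNF304, a run on the same chromosome, had -0.06, -0.01, -0.07 and -0.06. Genes of related symbol series showed both signs at a control mean of 7 or more: 10 of 16 ZBTB genes, which pair zinc fingers with a BTB domain, had a higher mean (median 0.02), as did 2 of 4 ZSCAN, 1 of 3 ZKSCAN and 2 of 3 ZFP genes. The 5 expressed ZNF genes with several clusters on the array had the same sign in each of them.

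Across the 130 genes the difference bore little relation to level, with Pearson's r of -0.05 and Spearman's rho of -0.04 against the control mean. Promoter GC content had r = -0.16 with the difference over 117 of these genes and -0.15 over 4055 other named genes of that level. Genes are not independent replicates, and all values share the same 12 arrays.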
